A study of Homo sapiens with 10 samples.

Results

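The proteasome is the large protease that degrades proteins tagged with ubiquitin. A barrel-shaped core particle, made of outer alpha rings and inner beta rings, does the cutting, and a regulatory particle at its end recognises ubiquitin, unfolds the protein and threads it into the barrel. Most subunits are made in every cell, whereas a few catalytic beta subunits and activators are raised by interferon and adapt the particle to making peptides for class I antigen presentation. When proteasome activity is short, the transcription factor NRF1 (gene NFE2L1) raises the subunit genes together, and heat shock, which damages proteins, raises the load of ubiquitin-tagged substrates.

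The genes described here are those whose symbol starts with PSMA to PSMG followed by a number. In the deposited table of 63187 genes, 101 symbols matched those letters. After 44 pseudogene rows and 7 antisense or divergent RNA rows were left out, 50 genes remained, of which 48 had enough counts to be tested. They are 8 alpha subunits, 11 beta subunits, 6 ATPases and 11 other subunits of the regulatory particle, 7 assembly chaperones, 5 activators or inhibitors and 2 further proteins, PSMC3IP and PSME3IP1, which match the letters but are named for an interaction. PSMA8, a testis-specific alpha subunit, and PSMB11, a thymus-specific beta subunit, had 0 counts in all 6 libraries. A count of 0 allows up to 3 counts, or 0.194 to 0.226 CPM (counts relative to library size) by library, and this limit covers counting error only.

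The cells were U2OS, an established human osteosarcoma line, in 3 groups of 2 RNA-seq libraries. The groups were unheated control cells (shCtrl, NHS, genotype given as WT), heat-shocked control cells (shCtrl, HS, also WT) and heat-shocked cells with knockdown of YTHDC1 (shYTHDC1, HS), a nuclear protein that reads m6A, a methylated base in RNA. No group was knocked down and left unheated, and how hot and how long the heat shock was is not stated in the labels. They name 1 knockdown reagent, so loss of YTHDC1 and other effects of that reagent cannot be told apart. Sample titles call the reagent sh and the descriptions call it si. Per the labels, all cells were grown in DMEM with serum. Since no label ties the 2 libraries of a group to different cultures, the p-values measure only the spread between these samples, and that spread may be technical. YTHDC1 stood at 212 and 224 CPM (scaled between libraries by TMM) without heat, 267 and 257 CPM with heat and 121 and 118 CPM with heat and knockdown, which left 45.4% of the heated level (log2 fold change -1.14 ± 0.05 SE, edgeR adjusted p = 2.65e-15).

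The libraries held between 13252370 and 15500743 counts. Markers of the labelled tissue and of other cell types were not level across the groups. All 6 bone and mesenchymal markers had counts, and they summed to 2670 to 2726 TPM (a level per gene length) in unheated controls, 2629 to 2666 TPM in heated controls and 2136 to 2383 TPM in the knockdown, although COL1A2 was close to 0. Within that sum COL1A1 went from 536 and 558 TPM with heat to 774 and 704 TPM with heat and knockdown, whereas SPARC and VIM were lower in the knockdown. The 5 epithelial markers summed to 49.4 to 51.9, 59.9 to 65.1 and 91.1 to 99.1 TPM in the same order, but did not move together. With heat CLDN4 went from 34.6 and 32.6 to 44.8 and 52.1 TPM, EPCAM overlapped, and CDH1, KRT5 and KRT14 were lower. In the knockdown EPCAM went from 9.06 and 6.76 to 29.7 and 29.9 TPM, and KRT14 from 4.82 and 4.82 to 19.8 and 15.5 TPM. CDH1 and KRT5 were also higher there, whereas CLDN4 was at 45.8 and 41.9 TPM. The 5 blood markers summed to 11.0 to 11.6, 17.8 to 39.0 and 4.80 to 11.2 TPM, with HBB at 0 in every library. The higher sums with heat came from HBA2, at 4.60 and 26.9 TPM, whereas LCP1 was at 11.8 and 11.5 TPM with heat and 2.90 and 3.005 TPM with heat and knockdown. The 2 endothelial markers stayed between 0 and 0.945 TPM. The part of these markers in the results was not tested. In bulk RNA, fewer cells of a type and less RNA per cell cannot be told apart.

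RefSeq promoters (250 bases before to 50 after the start, GRCh38.p14) were found for 44 of the 50 genes. They were set beside 35116 promoters in all, which were not matched to them in gene type or base composition. Both strands were searched. The motifs were TGACNNNGC for the antioxidant response element that NRF1 and NRF2 bind, GAANNTTC and TTCNNGAA for a pair of heat shock units in either orientation, CCAAT, TTCNNNGAA for the gamma-activated site, GAAANNGAAA for the interferon-stimulated response element, and the NF-kB motif by name. No position held 2 of these motifs. The antioxidant motif was in 13 of 44 proteasome promoters (29.5%) and in 13.3% of all promoters. CCAAT was in 21 (47.7%) against 34.6%. The gamma-activated site was in 5 (11.4%) against 7.66%. The interferon-stimulated motif was in 6 (13.6%) against 3.57%. The heat shock motifs were in 1 (2.27%) against 6.77% for the first orientation and in 2 (4.55%) against 7.74% for the second. The NF-kB motif was in 0 of 44 against 5.91%. A match is a description of letters in the window, not a binding site.

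The following stretches are 60 bases each from promoters of genes that the results turn on, with the motif match in capitals. PSMB10 (chr16:67936851-67936910, minus strand), PSME2 (chr14:24146611-24146670, minus strand) and PSMG4 (chr6:3258887-3258946, plus strand) carried the same 10 letters of the interferon-stimulated motif before the start. PSME1 carried them on the other strand, 6 bases after its start, and is not printed. In the knockdown PSMB10, PSME2 and PSME1 fell and PSMG4 did not pass the test. PSMB4 and PSMA4 carried the motif with other letters in its middle and did not pass in the knockdown (log2 fold change -0.12 and -0.01). PSMB8 and PSMB9, which fell, had no match to this motif or to the gamma-activated site.
PSMB10: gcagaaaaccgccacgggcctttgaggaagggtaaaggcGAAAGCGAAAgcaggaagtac
PSME2: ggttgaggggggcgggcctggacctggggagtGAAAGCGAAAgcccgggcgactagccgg
PSMG4: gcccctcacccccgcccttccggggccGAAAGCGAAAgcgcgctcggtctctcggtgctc
PSMC3IP (chr17:42577892-42577951, minus strand) and PSMD5 (chr9:120842943-120843002, minus strand) carried a heat shock motif. PSMC3IP rose with heat and PSMD5 fell. PSMD6, with a heat shock match 200 bases before its start that is not printed, did not pass with heat (log2 fold change -0.10, edgeR adjusted p = 0.115).
PSMC3IP: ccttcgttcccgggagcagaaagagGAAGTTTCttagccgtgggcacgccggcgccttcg
PSMD5: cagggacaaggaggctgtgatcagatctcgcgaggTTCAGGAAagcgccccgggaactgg
PSMB3 (chr17:38752611-38752670, plus strand) and PSMG2 (chr18:12658678-12658737, plus strand) show the antioxidant motif of a core subunit and of a core assembly chaperone. Among all carriers PSMG2 rose with heat, PSMD5 fell and the others did not pass. In the knockdown PSMB3, PSMG2, PSMB9, PSME1, PSME2, PSMD5 and PSMD1 fell and PSMC4 rose. The carriers PSMD3, PSMD9, PSMD12, PSMG1 and PSME4 did not pass there.
PSMB3: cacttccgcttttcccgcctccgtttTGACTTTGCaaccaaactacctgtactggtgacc
PSMG2: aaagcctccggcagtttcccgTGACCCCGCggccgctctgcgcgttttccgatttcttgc

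Levels can be compared between genes only per gene length. In unheated controls the alpha subunit PSMA7 had the highest level of the 50 genes, 612 ± 36.9 TPM (SD, n = 2), followed by the activator PSME1 at 520 TPM, the ATPase PSMC3 at 374 TPM and the beta subunit PSMB3 at 362 TPM. The median over the 50 genes was 77.0 TPM, and the 7 constitutive beta subunits lay between 102 TPM for PSMB2 and 362 TPM for PSMB3. Subunits that sit in the particle in equal number thus had unequal counts per gene length in this table. Of the 7 assembly chaperones, PSMG3 was at 152 TPM and the other 6 lay between 3.07 TPM for PSMD9 and 27.2 TPM for PSMD5. The alpha subunits PSMA1, PSMA2 and PSMA6 were also low, at 16.05, 0.848 and 7.79 TPM, beside 95.6 TPM for PSMA5, 140 TPM for PSMA4 and 157 TPM for PSMA3. Rows named as PSMA6 pseudogenes held 37.8% of the joint counts of PSMA6 and its copies (32.5% to 41.2% by library), so its level is uncertain. PSMA6 also overlaps the gene PRORP-PSMA6. In unheated controls PSMA2 had 29 and 32 counts over a deposited length of 8378 bases. Whether reads of PSMA1, PSMA2 and PSMA6 were lost in counting was not tested. The deposited gene lengths, 1168 to 15795 bases, bear on every TPM.

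**Figure D1:**
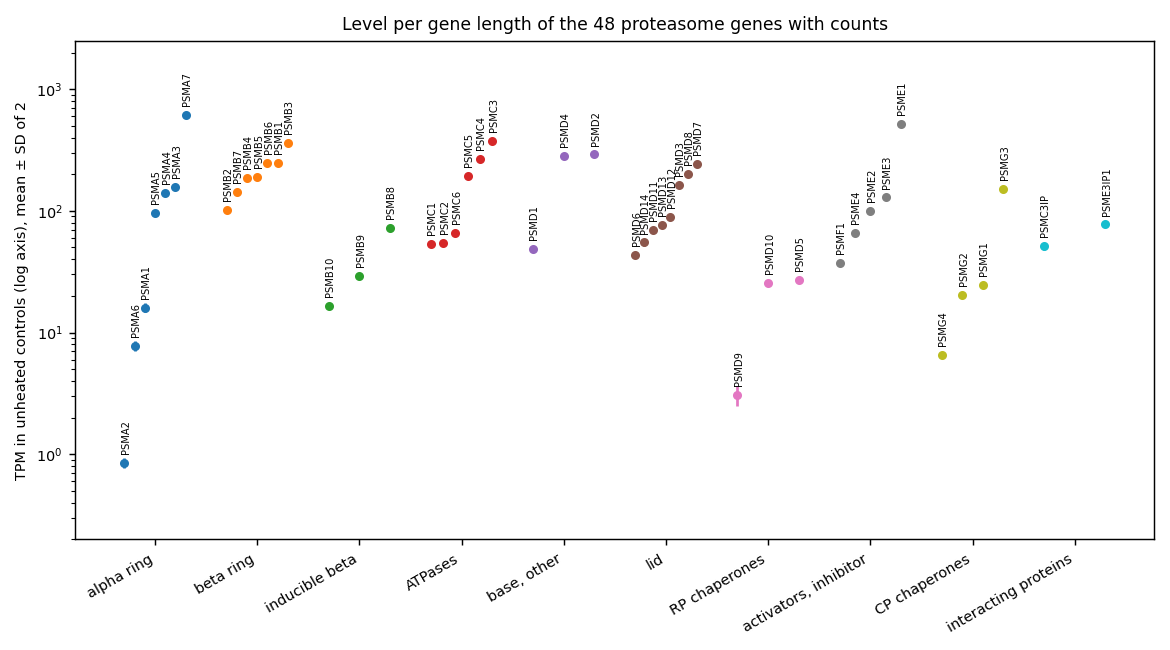
Level per gene length of the 48 genes with counts in unheated controls, in TPM on a log axis, grouped by role. Points are means and bars the SD of 2 libraries. PSMA7 stands highest at 612 TPM, and all assembly chaperones other than PSMG3 lie below the 7 constitutive beta subunits, as do the 3 inducible ones.

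All 50 genes together took 0.608% and 0.618% of the counts in unheated controls, 0.593% and 0.588% in heated controls and 0.567% and 0.558% in the knockdown. The exact binomial 95% intervals of these shares, which cover counting error only, ran from 0.555% to 0.562% at the lowest and from 0.614% to 0.622% at the highest. After scaling, the summed level was 5937 and 5978 CPM, then 6032 and 6008 CPM, then 5741 and 5622 CPM. The knockdown libraries were the lowest on both scales, whereas the order of unheated and heated controls turned with the scaling.

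With heat shock the proteasome genes moved little. Of the 48 tested, 9 rose, 3 fell and 36 did not pass the test (edgeR's quasi-likelihood test, Benjamini-Hochberg adjustment over 17290 genes, threshold 0.05). Over all tested genes 20.6% were called higher and 23.3% lower. Of the 37 proteasome genes with a mean of at least 50 CPM, 9 were called (24.3%), beside 59.4% of all tested genes at that level. The median log2 fold change was -0.01, beside -0.03 over all tested genes, and 43 of the 48 (89.6%) lay within 1.25-fold of the unheated level, beside 54.7% of all tested genes. The 54.7% was not matched for level, whereas most of the proteasome genes reached 50 CPM. How much of that gap goes with level was not tested. PSMD10 alone changed by at least 1.5-fold, and the share of all tested genes that changed as much was not counted.

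The count of 9 higher and 3 lower depended on the scaling and on single libraries. With library size in place of TMM it was 5 higher and 12 lower, beside 17% and 29.5% of all tested genes, and with DESeq2 5 rose, beside 13.4% of all genes. With only the 2 groups in the fit 15 rose, beside 24.9%. Without unheated control library 1 the test called 5 higher, and without library 2 it called 4. The number lower was 5 without heated control library 2 and 6 without either knockdown library. The share of all tested genes called also changed when single libraries were left out, as given in the closing section. Calls kept in all 12 alternatives were those of PSMD14, PSMD10, PSMG2 and PSMC3IP, higher, and PSMB8, PSMD5 and PSME3, lower.

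With the knockdown in heated cells more of the genes moved, and mostly down. There 21 fell, 6 rose and 21 did not pass the test, and over all tested genes 27.2% were called lower and 27.4% higher. Of the 37 genes of at least 50 CPM, 22 were called, 16 lower and 6 higher (59.5%), beside 72.2% of all tested genes at that level. The median log2 fold change was -0.13, beside -0.00 over all tested genes, and 33 of 48 (68.8%) stayed within 1.25-fold, beside 44.7% of all tested genes. The 44.7% was again not matched for level. The 7 genes that changed by at least 1.5-fold all fell: PSMB10, PSMB9, PSME3IP1, PSME3, PSMC3, PSMB8 and PSME1. How many of all tested genes changed as much, in either direction, was not counted. Of the 27 calls, 19 held in all 12 alternatives.

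The knockdown and heat comparisons share the heated controls, so their calls are given side by side only. PSMD14 rose in both. PSMD10, PSMG2, PSMC3IP and PSME3IP1 were higher with heat and lower with the knockdown, and PSMB8, PSMD5 and PSME3 were lower in both. For 17 genes neither comparison passed. These joint calls were not counted over all tested genes, so they are not read as a trait of the proteasome genes. Against unheated controls, the heated knockdown had 10 genes higher and 15 lower, where 31.1% of all tested genes were called in each direction.

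**Figure D2:**
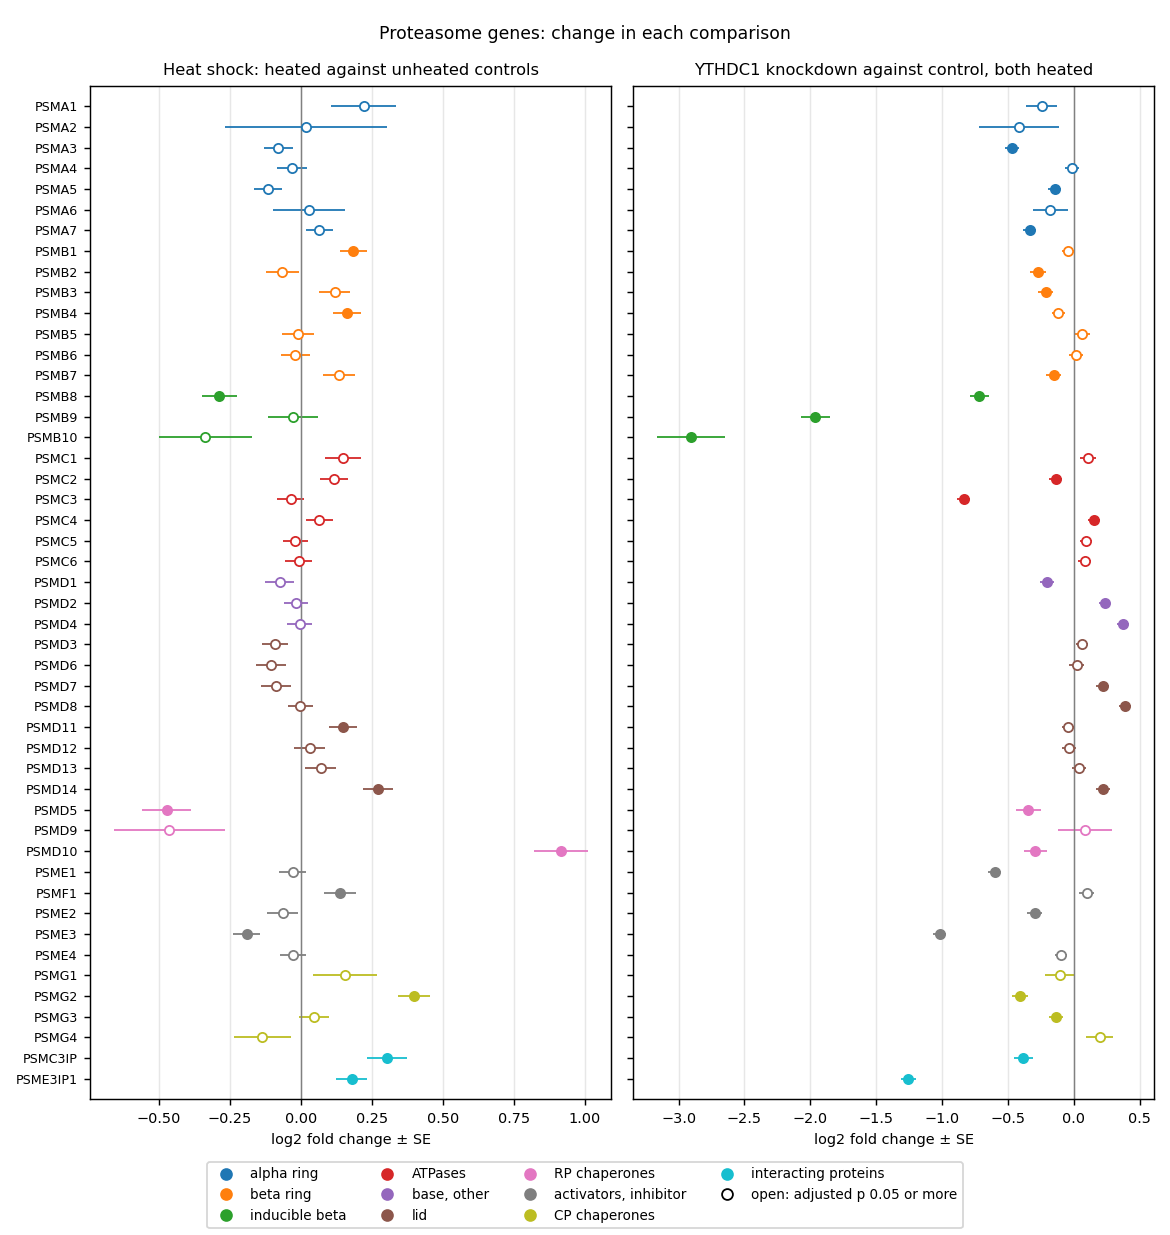
Log2 fold change with its SE for the 48 tested proteasome genes in each of the comparisons, coloured by role. Filled points passed an adjusted p of 0.05. Heat values lie between -0.47 (PSMD5) and 0.92 (PSMD10), and knockdown values between -2.91 (PSMB10) and 0.39 (PSMD8).

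The catalytic beta subunits split by kind in the knockdown. The 3 constitutive ones that carry the active sites, PSMB5 (chymotrypsin-like), PSMB6 (caspase-like) and PSMB7 (trypsin-like), differed by 0.15 or less on the log2 scale, whereas PSMB8, PSMB9 and PSMB10, the subunits that take their places in the immunoproteasome, all fell. The change grew from PSMB8 to PSMB9 to PSMB10 in size, with intervals that did not meet.

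PSMB8 (chromosome 6, 32840717 to 32844679) stood at 70.4 and 67.1 CPM without heat, 57.6 and 55.2 CPM with heat and 35.5 and 33.1 CPM with heat and knockdown. The 3 groups did not overlap, and the level stepped down at each. It fell with heat by 0.29 ± 0.06 on the log2 scale (adjusted p = 0.000547) and with the knockdown by 0.72 ± 0.07 (adjusted p = 4.78e-09), to 60.9% of the heated level. Its replacement partner PSMB5 stood at 80.8 and 79.8, 79.8 and 79.6, and 86.6 and 80.2 CPM. PSMB5 did not pass either test, with a knockdown log2 fold change of 0.06 (95% interval -0.05 to 0.18, adjusted p = 0.344). PSMB8 overlaps the antisense gene PSMB8-AS1, and since no source used here gives the strand setting of the counting, reads of the 2 cannot be told apart.

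PSMB9 (chromosome 6, 32854192 to 32859851), its neighbour in the class II region of the major histocompatibility complex, was at 26.1 and 27.5 CPM without heat, 25.9 and 26.7 CPM with heat and 6.81 and 6.67 CPM with heat and knockdown. The unheated and heated controls overlapped, and both knockdown libraries lay far below them. The knockdown left 25.7% (log2 fold change -1.96 ± 0.11, adjusted p = 4.34e-13), and heat gave -0.03 (adjusted p = 0.831). Its partner PSMB6 ran from 94.4 to 98.8 CPM over the 6 libraries and did not pass the knockdown test (log2 fold change 0.02, adjusted p = 0.802).

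PSMB10 (chromosome 16, 67934506 to 67936850) had the largest change of the 48 genes in the knockdown. Its counts were 116 and 115 in unheated controls, 77 and 80 in heated controls and 12 and 10 in the knockdown, or 7.30 and 7.37, 5.91 and 5.72, and 0.843 and 0.694 CPM. Both knockdown libraries were low at a depth that still gave 10 counts or more. The knockdown left 13.3% (log2 fold change -2.91 ± 0.26, adjusted p = 1.12e-09). With heat its groups did not overlap, but the test was not passed (-0.34 ± 0.16, adjusted p = 0.0999). Its partner PSMB7 stood at 68.6 and 71.1, 76.3 and 76.8, and 70.3 and 67.5 CPM, and fell in the knockdown by 0.15 ± 0.06 (adjusted p = 0.0272). That call of PSMB7 was lost with DESeq2 and without either heated control or knockdown library 2 (adjusted p up to 0.171).

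As a share of the summed TPM of each pair, PSMB8 over PSMB8 and PSMB5 went from 27.9% and 27.2% in unheated controls to 24.3% and 23.6% in heated controls and 15.4% and 15.5% in the knockdown. PSMB9 over its pair with PSMB6 was 10.5% and 10.8%, then 10.6% and 10.5%, then 2.95% and 2.86%. PSMB10 over its pair with PSMB7 was 10.5% and 10.2%, then 7.85% and 7.57%, then 1.30% and 1.12%. The inducible share was lowest in both knockdown libraries for each pair, and these are shares of mRNA, not of assembled particles.

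**Figure D3:**
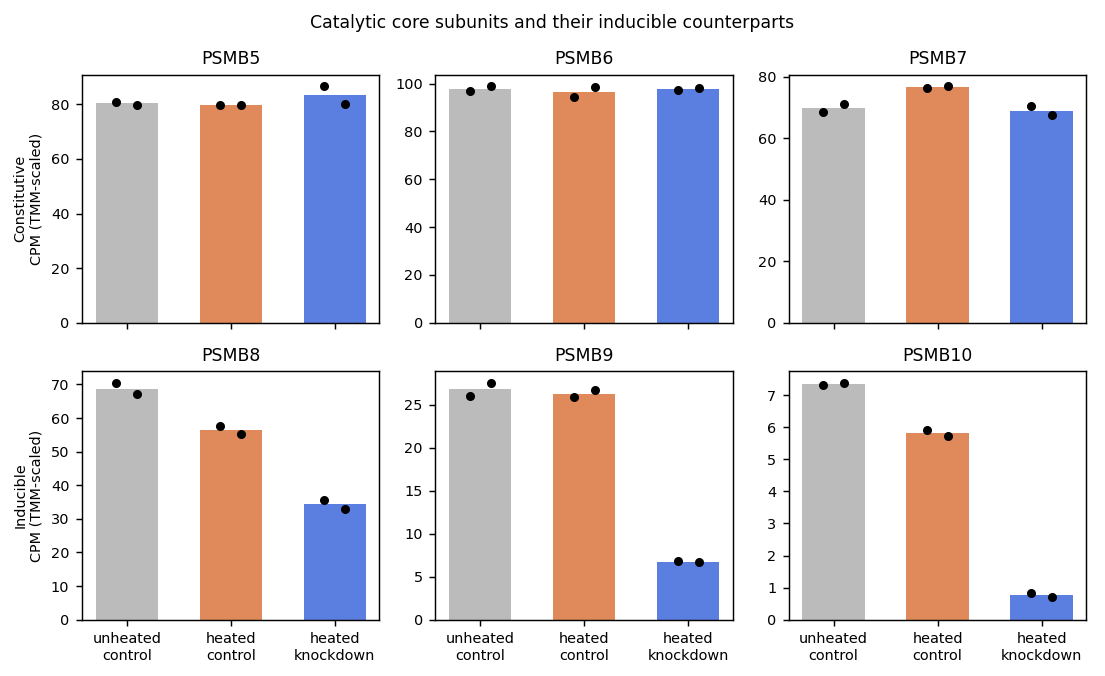
TMM-scaled CPM of the constitutive catalytic subunits (top) and their inducible counterparts (bottom) in unheated controls, heated controls and the heated knockdown, with 1 point per library and axes that start at 0. PSMB5 and PSMB6 stay level, and PSMB9 drops from about 26 to under 7 CPM in both knockdown libraries.

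Among the other constitutive beta subunits, which build the ring without an active site, PSMB1 and PSMB4 rose with heat, by 0.18 ± 0.05 (adjusted p = 0.00244) and 0.16 ± 0.05 (adjusted p = 0.0116) on the log2 scale. Each call was lost when a control library was left out, for PSMB1 unheated library 2 or heated library 1, and for PSMB4 either unheated library or heated library 2. The PSMB4 call was also lost with DESeq2 and with library size alone. PSMB2 and PSMB3 fell in the knockdown by 0.27 ± 0.06 (adjusted p = 0.00054) and 0.21 ± 0.06 (adjusted p = 0.00241).

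The alpha ring forms the gate of the barrel. None of its 7 tested genes passed with heat, and 3 of 7 fell in the knockdown, where 27.2% of all tested genes were called lower. Some alternatives did call alpha genes with heat. PSMA3 and PSMA5 were lower with library size alone, and PSMA7 was higher with only the 2 groups in the fit. PSMA3 was at 131 and 135 CPM without heat, 130 and 122 CPM with heat and 93.0 and 89.4 CPM with heat and knockdown, a fall of 0.47 ± 0.05 on the log2 scale (adjusted p = 5.99e-08). PSMA7 was at 282 and 303, 306 and 306, and 252 and 233 CPM, a fall of 0.34 ± 0.05 (adjusted p = 2.69e-06). In both genes the knockdown libraries lay below all controls. PSMA5 fell by 0.15 ± 0.05 (adjusted p = 0.0177), a call lost without heated control library 1 or knockdown library 2 and with DESeq2. PSMA4, at 272 and 251 CPM in heated controls and 273 and 245 CPM in the knockdown, did not pass (log2 fold change -0.01, adjusted p = 0.858). PSMA3 overlaps the antisense gene PSMA3-AS1, so its counts carry the same uncertainty as those of PSMB8.

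The 6 ATPases form the ring that unfolds the substrate, and each particle needs all of them. None passed with heat, although PSMC1 was called higher in 6 of the 12 alternatives (lowest adjusted p = 0.0025) and PSMC2 in 3 (lowest adjusted p = 0.0039). In the knockdown PSMC3 fell, PSMC2 fell, PSMC4 rose and the other 3 did not pass. PSMC3 (chromosome 11, 47418775 to 47426439) was at 237 and 228 CPM without heat, 235 and 219 CPM with heat and 129 and 125 CPM with heat and knockdown, which left 56.1% (log2 fold change -0.83 ± 0.05, adjusted p = 9.83e-13). It stood apart within the ring, since the others ranged from -0.14 for PSMC2 (adjusted p = 0.0222) to 0.15 for PSMC4 (adjusted p = 0.00884). The PSMC2 and PSMC4 calls were lost with DESeq2 and when single libraries were left out: heated control library 2 or knockdown library 1 for both, and heated control library 1 for PSMC2. PSMC1, PSMC2 and PSMC5 overlap other protein-coding genes.

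In the rest of the base, PSMD1 and PSMD2 are the large scaffold proteins and PSMD4 is a ubiquitin receptor. PSMD4 was at 236 and 230 CPM without heat, 232 and 231 CPM with heat and 298 and 303 CPM with heat and knockdown, a rise of 0.37 ± 0.04 on the log2 scale (adjusted p = 1.24e-07). PSMD2, at 391 and 398, 390 and 390, and 464 and 453 CPM, rose by 0.23 ± 0.04 (adjusted p = 5.57e-05). The scaffold proteins thus moved apart, because PSMD1 fell by 0.20 ± 0.05 (adjusted p = 0.00215), from 197 and 200 CPM to 183 and 162 CPM. None of the 3 passed with heat. PSMD1 overlaps the protein-coding gene HTR2B.

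The lid removes ubiquitin from the substrate. Of its 8 genes 2 rose with heat (25%, where 20.6% of all tested genes were called higher), 3 rose in the knockdown (37.5%, where 27.4% were), and none fell in either. PSMD14, the deubiquitinating enzyme, stood at 106 and 114 CPM without heat, 132 and 133 CPM with heat and 160 and 148 CPM with heat and knockdown. Its groups stepped up without overlap, by 0.27 ± 0.05 with heat (adjusted p = 0.00019) and by a further 0.22 ± 0.05 with the knockdown (adjusted p = 0.00101), or 0.49 ± 0.05 in all (adjusted p = 1.67e-08). PSMD8, a structural lid subunit, went from 232 and 238 CPM in heated controls to 302 and 313 CPM, a rise of 0.39 ± 0.04 (adjusted p = 9.2e-08) and the highest of the 48 genes in the knockdown. PSMD7, the inactive partner of PSMD14, rose by 0.22 ± 0.05 (adjusted p = 0.00105), a call lost without heated control library 1. PSMD11 rose with heat by 0.15 ± 0.05 (adjusted p = 0.0172), but not without either unheated library or heated control library 2, with DESeq2 or with library size alone.

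The largest heat changes were in the chaperones that help to build the base and are absent from the finished particle. PSMD10 (gankyrin; chromosome X, 108084207 to 108091542) was at 17.2 and 15.9 CPM without heat, 33.5 and 29.1 CPM with heat and 25.8 and 25.3 CPM with heat and knockdown. It rose 1.89-fold with heat (log2 fold change 0.92 ± 0.09, adjusted p = 2.41e-08). In the knockdown it was lower than in heated controls by 0.29 ± 0.09 (adjusted p = 0.00822), a call lost with DESeq2 and without heated control library 1 (adjusted p up to 0.16), and it stayed above unheated controls by 0.62 ± 0.10 (adjusted p = 5.37e-06). PSMD10 overlaps the protein-coding gene ATG4A.

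PSMD5 moved the other way from PSMD10. It was at 31.8 and 33.6 CPM without heat, 22.6 and 24.5 CPM with heat and 17.6 and 19.5 CPM with heat and knockdown, and the groups did not overlap. It fell with heat by 0.47 ± 0.09 (adjusted p = 9.35e-05) and in the knockdown by 0.35 ± 0.10 (adjusted p = 0.00368), which DESeq2 did not call (adjusted p = 0.053). PSMD9, the remaining chaperone of the base, was at 6.42 and 8.27, 4.68 and 5.94, and 4.49 and 6.81 CPM and did not pass with heat (-0.46 ± 0.19, adjusted p = 0.058). It was called lower in 8 of the 12 alternatives, the replicate block among them (lowest adjusted p = 0.018).

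The activators cap the core particle in place of the regulatory particle, and 3 of the 4 fell in the knockdown, where 27.2% of all tested genes were called lower. PSME3, which forms the nuclear activator PA28 gamma, was at 179 and 184 CPM without heat, 158 and 160 CPM with heat and 80.0 and 76.6 CPM with heat and knockdown. It fell with heat by 0.19 ± 0.05 (adjusted p = 0.00178) and was left at 49.3% by the knockdown (log2 fold change -1.02 ± 0.05, adjusted p = 4.49e-14). PSME1 and PSME2 are neighbours on chromosome 14 and form the interferon-inducible activator together. PSME1 was at 249 and 255, 248 and 246, and 171 and 155 CPM, and was left at 66.0% (-0.60 ± 0.05, adjusted p = 3.35e-10). PSME2 was at 95.4 and 100 CPM without heat, 89.7 and 97.3 CPM with heat and 76.5 and 75.8 CPM with heat and knockdown, and was left at 81.3% (-0.30 ± 0.06, adjusted p = 9.96e-05). The partners thus fell to different levels, and neither passed with heat. PSME4, the activator linked to acetylated histones, did not pass in the knockdown (-0.10 ± 0.05, adjusted p = 0.0874). PSMF1, an inhibitor of the core, was higher with heat by 0.14 ± 0.06 (adjusted p = 0.0496), a call lost without any 1 of the 4 control libraries, with DESeq2, with library size alone and without the filter.

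The PSMG chaperones pair up to assemble the alpha ring. PSMG2 was at 69.6 and 70.4 CPM without heat, 90.7 and 94.0 CPM with heat and 72.5 and 66.7 CPM with heat and knockdown. It rose with heat by 0.40 ± 0.06 (adjusted p = 3.23e-06) and fell in the knockdown by 0.41 ± 0.06 (adjusted p = 1.86e-06), and the heated knockdown differed from unheated controls by -0.01 (adjusted p = 0.907). Its partner PSMG1 did not pass either test, at 14.7 and 14.4, 17.5 and 15.0, and 14.5 and 15.7 CPM. PSMG3 was lower in the knockdown by 0.14 ± 0.05 (adjusted p = 0.0375), a call lost in 9 of the 12 alternatives, among them leaving out any library other than knockdown library 1. PSMG4, whose promoter carries the same interferon-stimulated letters as PSMB10, PSME2 and PSME1, was at 16.2 and 17.5 CPM in heated controls and 19.1 and 19.5 CPM in the knockdown and did not pass (0.20 ± 0.10, adjusted p = 0.105). PSMG2 overlaps the protein-coding genes SPIRE1 and CEP76.

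Both proteins named for an interaction were higher with heat and lower in the knockdown. PSME3IP1, which binds PSME3, was at 92.4 and 90.9 CPM without heat, 107 and 101 CPM with heat and 41.9 and 45.0 CPM with heat and knockdown. It was left at 41.9% by the knockdown (log2 fold change -1.25 ± 0.06, adjusted p = 2.27e-14), so PSME3 and the protein that binds it fell in the same libraries. Its heat call (0.18 ± 0.05, adjusted p = 0.00929) was lost without either unheated library or heated control library 1, with DESeq2 and with library size alone. PSMC3IP, a recombination factor also known as HOP2 and not part of the proteasome, was at 34.8 and 37.5, 45.8 and 43.5, and 34.3 and 34.1 CPM. It rose with heat by 0.30 ± 0.07 (adjusted p = 0.00124) and fell in the knockdown by 0.38 ± 0.07 (adjusted p = 0.000102), and it overlaps the protein-coding gene MLX. Without these 2 genes the counts were 7 higher and 3 lower with heat, and 6 higher and 19 lower in the knockdown.

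**Figure D4:**
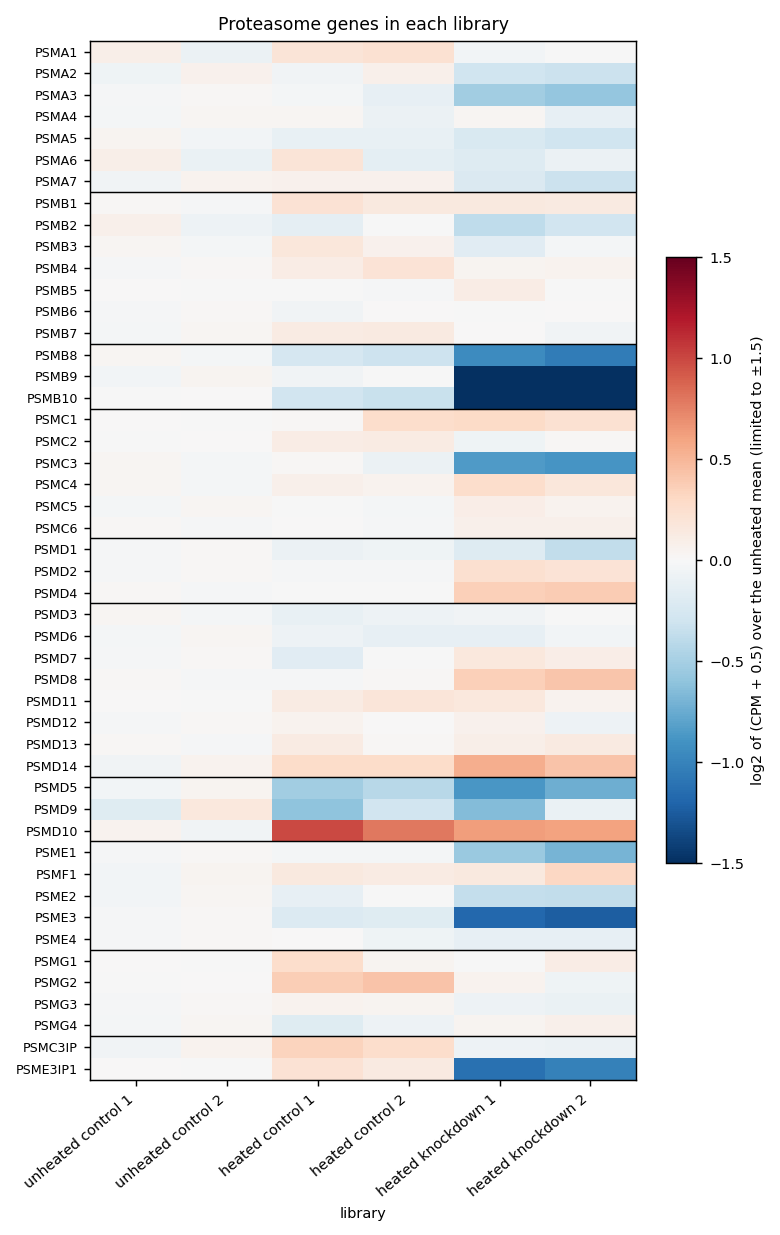
Each of the 48 tested genes in each of the 6 libraries, as the log2 of CPM plus 0.5 over the unheated mean, with colours limited to ±1.5 and lines between roles. PSMB8, PSMB9, PSMB10, PSMC3, PSMD5, PSME3 and PSME3IP1 are darkest in both knockdown libraries, and PSMD10 stands out in the heated controls.

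Genes that work with the proteasome but have other names were counted in the same fit, against the shares of all tested genes given above. Of 10 further subunits, chaperones and bound enzymes, 3 rose and 2 fell with heat, and 6 rose and 1 fell in the knockdown. The 1 that fell was POMP, the maturation factor of the core, at 66.1 and 66.4, 78.3 and 76.4, and 66.3 and 62.1 CPM: it rose with heat by 0.22 ± 0.06 (adjusted p = 0.00267) and fell by 0.27 ± 0.06 (adjusted p = 0.000413), the same order of groups as PSMG2. USP14, a deubiquitinase bound to the proteasome, did the reverse, with a fall of 0.30 ± 0.05 with heat (adjusted p = 5.26e-05) and a rise of 0.30 ± 0.05 in the knockdown (adjusted p = 3.43e-05). The ubiquitin ligase UBE3C rose in the knockdown by 0.49 ± 0.07 (adjusted p = 1.48e-06) and the ubiquitin receptor ADRM1 by 0.34 ± 0.05 (adjusted p = 1.66e-06).

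In the list around NRF1 activation, 4 of 10 genes rose and 4 fell with heat, and 5 rose and 3 fell in the knockdown. NFE2L1 itself was at 218 and 224 CPM without heat, 189 and 185 CPM with heat and 250 and 246 CPM with heat and knockdown. It fell with heat by 0.24 ± 0.05 (adjusted p = 0.000101) and rose in the knockdown by 0.41 ± 0.05 (adjusted p = 4.34e-08). VCP, the segregase that extracts it from the membrane, had the same order, with a fall of 0.39 ± 0.04 (adjusted p = 9.76e-08) and a rise of 0.41 ± 0.04 (adjusted p = 3.52e-08). The related factor NFE2L2 had the opposite order, with a rise of 0.24 ± 0.05 (adjusted p = 0.000399) and a fall of 0.54 ± 0.05 (adjusted p = 2.96e-09). NPLOC4, a cofactor of VCP, fell with heat by 0.43 ± 0.05 (adjusted p = 6.04e-08), and NGLY1, which strips sugars from NRF1, fell in the knockdown by 0.53 ± 0.08 (adjusted p = 6.89e-06).

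Of 4 genes for ubiquitin and its activating enzymes, 1 rose and 0 fell with heat, and 1 rose and 2 fell in the knockdown. UBB, which encodes ubiquitin, was at 503 and 499 CPM without heat, 1026 and 1042 CPM with heat and 1091 and 1186 CPM with heat and knockdown. Its unheated libraries lay far below the others, and it rose with heat by 1.05 ± 0.05 (adjusted p = 3.69e-15) and in the knockdown by 0.14 ± 0.05 (adjusted p = 0.0125). The knockdown call was lost without heated control library 1 or knockdown library 2 (adjusted p up to 0.131). UBA6, an activating enzyme, fell in the knockdown by 0.52 ± 0.05 (adjusted p = 2.15e-08), and RPS27A, a ubiquitin and ribosomal protein fusion, by 0.17 ± 0.05 (adjusted p = 0.00308), a call lost without heated control library 1.

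Of 8 shuttle factors and proteasome-binding zinc finger proteins, 2 rose and 3 fell with heat, and 3 rose and 1 fell in the knockdown. UBQLN1 and UBQLN2, closely related shuttles, went apart with heat, by 0.53 ± 0.05 (adjusted p = 2.02e-09) and -0.71 ± 0.07 (adjusted p = 2.37e-08). ZFAND2A, known as a heat-induced gene, rose by 4.58 ± 0.07 with heat (adjusted p = 3.89e-25). In the knockdown ZFAND2B rose by 0.61 ± 0.09 (adjusted p = 2.28e-06), UBQLN4 by 0.51 ± 0.07 (adjusted p = 9.69e-07), and ZFAND5 by 0.25 ± 0.05 (adjusted p = 0.000185). The gene that fell was RAD23B, by 0.23 ± 0.05 (adjusted p = 0.000159).

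The class I antigen presentation and interferon list, which uses the peptides that immunoproteasomes make, had 5 of 14 genes higher and 4 lower with heat, and 0 higher and 11 lower in the knockdown. IRF1, a transcription factor known to raise PSMB9, was at 51.1 and 49.8 CPM without heat, 50.3 and 48.1 CPM with heat and 19.3 and 18.4 CPM with heat and knockdown (-1.38 ± 0.08, adjusted p = 3.51e-13). Like PSMB9, it overlapped between the controls and was low in both knockdown libraries. TAPBP, which loads peptides on class I molecules, fell by 1.14 ± 0.06 (adjusted p = 9.6e-14), and ERAP2, which trims them, by 0.94 ± 0.21 (adjusted p = 0.000514). With heat STAT2 rose by 0.81 ± 0.06 (adjusted p = 3.29e-11), TAP2 fell by 0.74 ± 0.09 (adjusted p = 1.39e-07) and ERAP2 fell by 0.49 ± 0.17 (adjusted p = 0.0231). TAP1, the neighbour of PSMB9, fell by 0.20 ± 0.06 in the knockdown (adjusted p = 0.0119), far less than PSMB9 did.

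**Figure D5:**
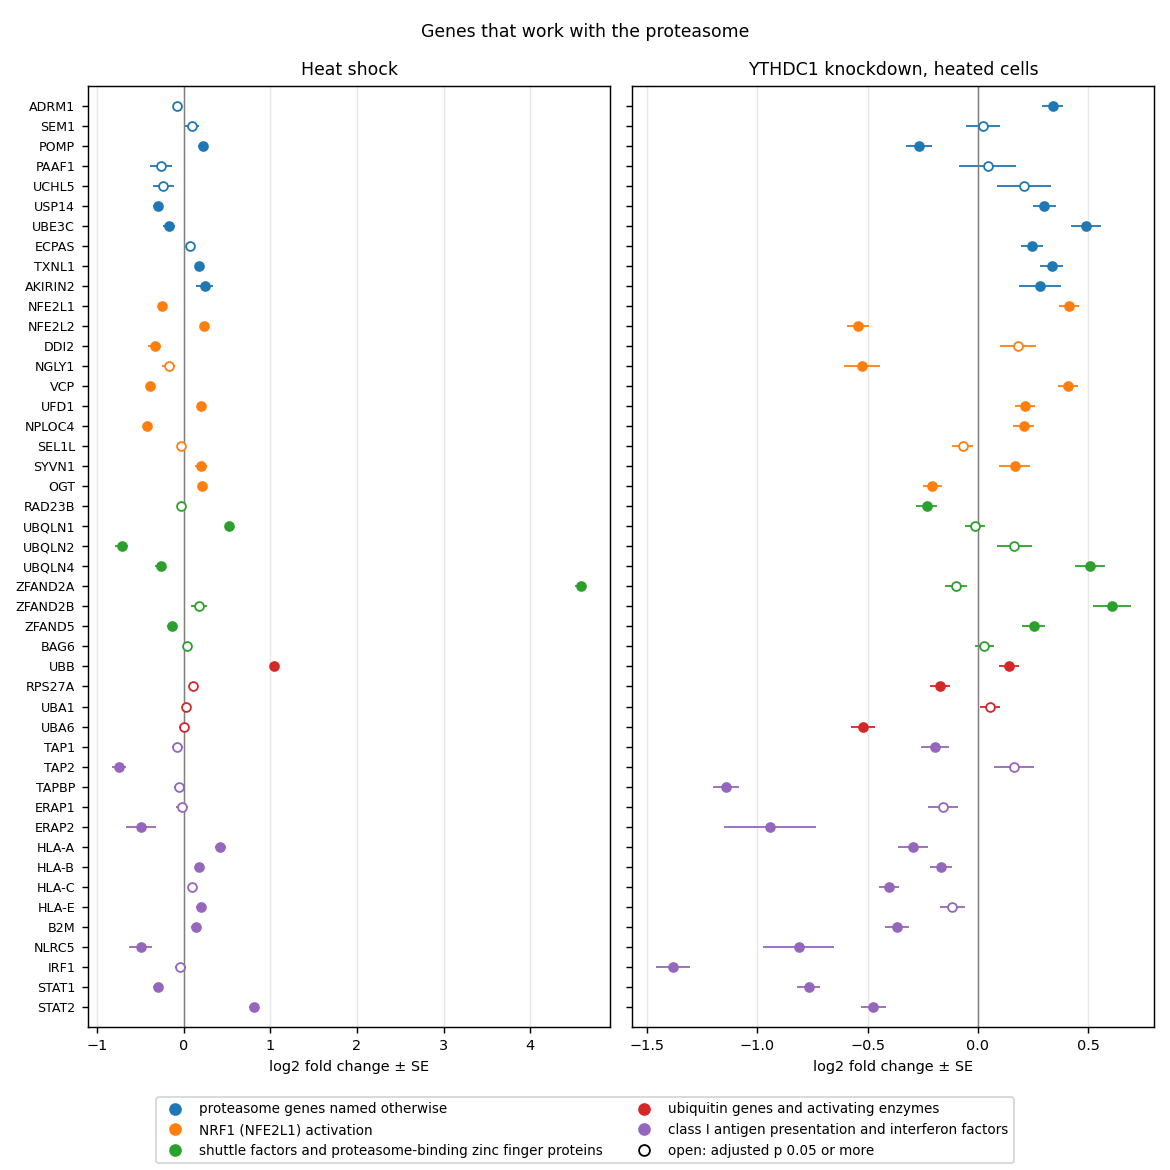
Log2 fold change with its SE for the 46 genes of the 5 lists that work with the proteasome, with heat shock (left) and with the YTHDC1 knockdown in heated cells (right). Filled points passed an adjusted p of 0.05. The x axes differ: ZFAND2A reaches 4.58 with heat, and IRF1 is lowest in the knockdown at -1.38.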

How the data were processed

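The deposited values were whole-number read counts per gene for 63187 Ensembl genes in 6 RNA-seq libraries, with a gene length per the file headers. The submitters' processing notes name GRCh38 and, without role or order, featureCounts 2.0.2, HISAT2 2.2.1, Trim Galore 0.6.7, FastQC 0.11.8, SAMtools 1.17, MACS2, R 4.4.0 and DESeq2 1.36.0. No source used here gives the annotation, strandedness or handling of multimapping reads. The series' 4 MeRIP samples were not analysed here.

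Symbols were matched for 62666 genes, and the 521 without one held 0.0602% to 0.0698% of the counts. Tests used the robust quasi-likelihood F test of edgeR 4.0.16 (R 4.3.3) after TMM scaling and filterByExpr (minimum count 10), with all 6 libraries in 1 fit, 3 residual degrees of freedom and Benjamini-Hochberg adjustment over 17290 genes. Each SE is the log2 fold change over the square root of F. TPM used the deposited length. Alternatives were DESeq2 1.42.0, library size alone, no filter, only the groups compared, the replicate number as a block, each library left out, pseudogene counts added, and the interaction proteins left out. The 2 libraries of a group were no copies of each other: their chi-square per gene was 1.55, 2.69 and 3.54 in unheated controls, heated controls and knockdown.

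The members and lists were chosen with earlier results of these data known, and some genes of the lists are not reported here. The rule for genes named with values took the catalytic subunits, the 3 largest called changes of each role and list, called changes of at least 1.5-fold and members that moved against their role. Not every gene that meets it is named. Left out are, for example, NLRC5, DDI2 and AKIRIN2 with heat and TXNL1 in the knockdown. Against unheated controls the rule was not carried through. PSMA4, PSMG1 and other genes named beyond that rule were chosen after their values were seen. Positions and promoters are from RefSeq (GRCh38.p14), matched by symbol for 50 and 44 of 50 members.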

Additional observations from a re-analysis of the deposited data

How the results depend on the processing

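The counts with heat shock were the least stable. The 9 genes called higher became 5 with DESeq2, 5 with library size alone and 15 with only the 2 groups in the fit, and ranged from 4 to 13 when 1 library was left out. Calls over all genes went from 43.9% of tested genes to 26.5% with DESeq2, 48.7% with only the 2 groups, 32.1% and 33.3% without unheated library 1 and 2, and 46.1% without knockdown library 2. The 3 called lower became 12 with library size alone and ranged from 3 to 6 when 1 library was left out. The median log2 fold change with heat became -0.076 with library size alone and 0.023 with only the 2 groups, and ranged from -0.0090 to 0.0060 when 1 library was left out. Library size alone also moved the median over all genes from -0.03 to -0.10. In the knockdown, 5 to 7 genes were higher and 17 to 20 lower when 1 library was left out, DESeq2 called 15 lower against 21 (calls over all genes went from 54.5% to 34.8%, and to 44.3% without heated control library 1), and the median ranged from -0.14 to -0.10. Against unheated controls the median became -0.083 with library size alone and ranged from -0.051 to -0.032. The cause of these shifts was not tested. Calls that held in all 12 alternatives were 7 of 12 with heat, 19 of 27 in the knockdown and 22 of 25 against unheated controls, and no called gene changed sign. Of the genes not called, 15 of 36, 4 of 21 and 6 of 23 were called in some alternative. Adding pseudogene counts gave 10 higher and 3 lower with heat, and left both knockdown counts at 6 and 21.

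Deviations from the group mean were close to uncorrelated between libraries with the same replicate number (correlations of -0.01, 0.03 and -0.03). With 2 libraries per group, which counting noise sets apart, these values cannot tell whether such libraries shared a culture or a preparation. With the replicate block 9 genes were higher and 4 lower with heat, 6 higher and 21 lower in the knockdown, and 10 higher and 15 lower against unheated controls. The median log2 fold changes with the replicate block were -0.01, -0.13 and -0.03, and that of YTHDC1 was -1.14. Low counts limit PSMA2, PSMB10 and PSMD9 the most.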
